A study of Mus musculus with 19 samples.

Results

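Nodal, its relatives Gdf3 and Inhbb, the co-receptors Tdgf1 and Cfc1, the antagonists Lefty1, Lefty2 and Fst, and the intracellular inhibitor Smad7 were followed across 19 RNA-seq libraries of differentiating mouse embryonic stem cells. The 9 genes were chosen by name, and each matched 1 of the 38424 entries of the deposited expression table. Nodal, Lefty1, Tdgf1, Gdf3, Fst and Smad7 reached 1 FPKM (sequenced fragments for each kilobase of a transcript, relative to all mapped fragments of the library) in all 19 libraries, Lefty2 in 18 and Cfc1 in 11. Inhbb did not reach 1 FPKM in any library.

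Nodal is a secreted ligand of the TGF-beta superfamily that binds activin receptors together with an EGF-CFC co-receptor, which is Tdgf1 (Cripto) or Cfc1 (Cryptic). The receptors phosphorylate Smad2 and Smad3, which join Smad4 and partners such as Foxh1 on target genes, among them Nodal itself and its secreted antagonists Lefty1 and Lefty2. In the embryo the pathway is known for its part in maintaining the epiblast and for forming the primitive streak, the endoderm and the left-right axis.

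The study asked which genes respond when long non-coding RNAs transcribed divergently from developmental coding genes are knocked down with short hairpins. In the embryonic stem cell lines CJ7 and CJ9 (129S4/SvJae), differentiation followed withdrawal of LIF, the cytokine that holds these cells undifferentiated, in medium with serum. The CJ7 cells carried a control hairpin (1 library) or a hairpin against Evx1as (2) and were taken on day 4. The CJ9 cells carried, on day 4, a control hairpin (1) or one against the coding gene EVX1 (2), on day 5 a control (2) or Fendrr hairpin (2), and on day 6 a control (1) or Lhx1os hairpin (1). In the third culture, 46c cells were grown in N2B27 medium with 5 nM retinoic acid to day 4, with a control hairpin (2) or one against Nr2f1as (2), Sox21os (1) or Pou3f3os (2). Every control library is labelled as carrying a control hairpin and had the same treatment and day as its knockdowns. Numbered libraries of 1 group could be different cultures, different hairpins or repeats of 1 culture, which the labels leave unstated. A p-value here therefore reflects the spread among these libraries and no more, and that spread may be technical.

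Library totals ran from 559050 to 655315 FPKM, and between 12255 and 12825 entries reached 1 FPKM in a library. The targeted coding gene Evx1 stood at 53.9 FPKM in the EVX1 control and at 30.2 and 37.0 in its knockdowns. The Fendrr entry stood at 1.10 and 1.49 FPKM in its controls and at 0.358 and 0.0768 in its knockdowns. The primitive streak and neural progenitor sums matched the labelled cultures. The 10 primitive streak genes summed to 59.8 to 931 FPKM after LIF withdrawal and to 6.51 to 24.6 with retinoic acid. The 7 neural progenitor genes summed to 8.02 to 67.8 and 292 to 391. In contrast, 6 definitive endoderm genes summed to 6.71 to 49.3 after LIF withdrawal and to 34.8 to 114 with retinoic acid, where Cxcr4 alone stood at 21.6 to 107. The 12 core and naive pluripotency genes summed to 728 to 2972 FPKM after LIF withdrawal and to 338 to 1182 with retinoic acid. Of these, Sox2 alone stood at 30.4 to 128 FPKM after LIF withdrawal and was higher, at 164 to 196, with retinoic acid. Dppa3 was listed at 0 in 4 retinoic acid libraries.

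The promoters are shown for the ligand and the 2 co-receptors because the levels of these genes differ most between cultures. They are the 250 bases before the RefSeq gene start in GRCm38.p6, read 5′ to 3′ on the gene's strand. Nodal is at chr10:61417722-61417971 on the plus strand, Tdgf1 at chr9:110946159-110946408 on the minus strand and Cfc1 at chr1:34535398-34535647 on the plus strand. Capitals mark GGGCGTGG.
Nodal: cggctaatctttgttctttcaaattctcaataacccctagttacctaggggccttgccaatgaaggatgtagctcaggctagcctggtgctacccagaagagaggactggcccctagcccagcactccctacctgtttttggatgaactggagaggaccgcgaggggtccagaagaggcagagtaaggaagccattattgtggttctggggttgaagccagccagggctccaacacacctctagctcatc
Tdgf1: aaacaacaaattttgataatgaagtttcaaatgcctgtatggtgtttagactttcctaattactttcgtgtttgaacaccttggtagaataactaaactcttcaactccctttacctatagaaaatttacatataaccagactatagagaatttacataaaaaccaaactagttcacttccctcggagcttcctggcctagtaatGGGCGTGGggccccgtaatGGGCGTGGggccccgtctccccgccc
Cfc1: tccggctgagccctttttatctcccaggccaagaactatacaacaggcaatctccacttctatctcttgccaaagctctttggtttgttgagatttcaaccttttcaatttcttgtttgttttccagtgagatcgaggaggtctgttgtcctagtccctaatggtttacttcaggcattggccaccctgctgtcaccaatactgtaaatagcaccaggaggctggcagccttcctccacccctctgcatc
The Tdgf1 promoter held GGGCGTGG, the reverse complement of the KLF and SP family motif CCACGCCC, at 45 to 38 and again at 26 to 19 bases before the start, inside a run of 19 bases that occurs more than once. This motif was chosen after the sequence was seen, and 4.79% of 32851 mouse promoters of the same length hold it on either strand. Searched on both strands, the FOXH1 motif AATCCACA (in 0.718% of promoters), the SMAD palindrome GTCTAGAC (0.167%), the SMAD motif CAGACA (17.1%), the octamer ATTTGCAT (1.60%) and TATAAA (12.4%) were not in these 3 windows. The share of G and C was 53.2% for Nodal, 42% for Tdgf1 and 47.6% for Cfc1, beside a median of 52.4% over all promoters.

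In the deposited table, whose positions are of the mm9 kind, Nodal lies at chr10:60880720-60888085, Tdgf1 at chr9:110842112-110848662, Gdf3 at chr6:122555421-122560089 and Fst at chr13:115242470-115248938. Cfc1 (chr1:34592493-34601156), Inhbb (chr1:121312042-121318825), Lefty2 (chr1:182823250-182829233) and Lefty1 (chr1:182865170-182868532) share chromosome 1. The antagonist genes Lefty2 and Lefty1 are neighbours, 35936 bases apart. No other entry of the table overlaps any of the 9 genes. Lefty1 shares 17.9% of its 50-base transcript windows with Lefty2, Cfc1 shares 24.3% with Prss40 and Tdgf1 shares 8.86% with the pseudogene Tdgf1-ps1, so reads from these stretches may be split or misassigned. The Prss40 entry itself lay between 0 and 0.0797 FPKM.

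Nodal was highest on day 4 of LIF withdrawal and lowest with retinoic acid. It measured 88.0 FPKM in the Evx1as control and 93.6 and 91.8 in the Evx1as knockdowns, then 61.1 in the EVX1 control and 56.5 and 56.8 in the EVX1 knockdowns. On day 5 the Fendrr controls stood at 36.5 and 29.2 and the knockdowns at 33.7 and 40.7, and on day 6 the Lhx1os control stood at 18.7 and the knockdown at 28.9. With retinoic acid the controls measured 1.73 and 15.7, the Nr2f1as knockdowns 6.18 and 12.5, the Sox21os knockdown 9.996 and the Pou3f3os knockdowns 2.23 and 1.92. In order of level, the Evx1as experiment came first, then EVX1, Fendrr, Lhx1os and the retinoic acid groups; the Fendrr control and knockdown overlapped, and the retinoic acid controls spanned all 5 knockdown libraries of that culture. The median over the 12 LIF-withdrawal libraries was 7.86 times that over the 7 retinoic acid libraries. The first set also holds days 5 and 6, while on day 4 alone Nodal stood at 56.5 to 93.6 FPKM against 1.73 to 15.7 with retinoic acid. Line, medium and experiment differ together between the cultures, so their parts cannot be told apart. Within LIF withdrawal, day 5 is the Fendrr and day 6 the Lhx1os experiment only, so day and experiment cannot be told apart. In bulk RNA fewer expressing cells cannot be told apart from less RNA per cell.

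**Figure D1:**
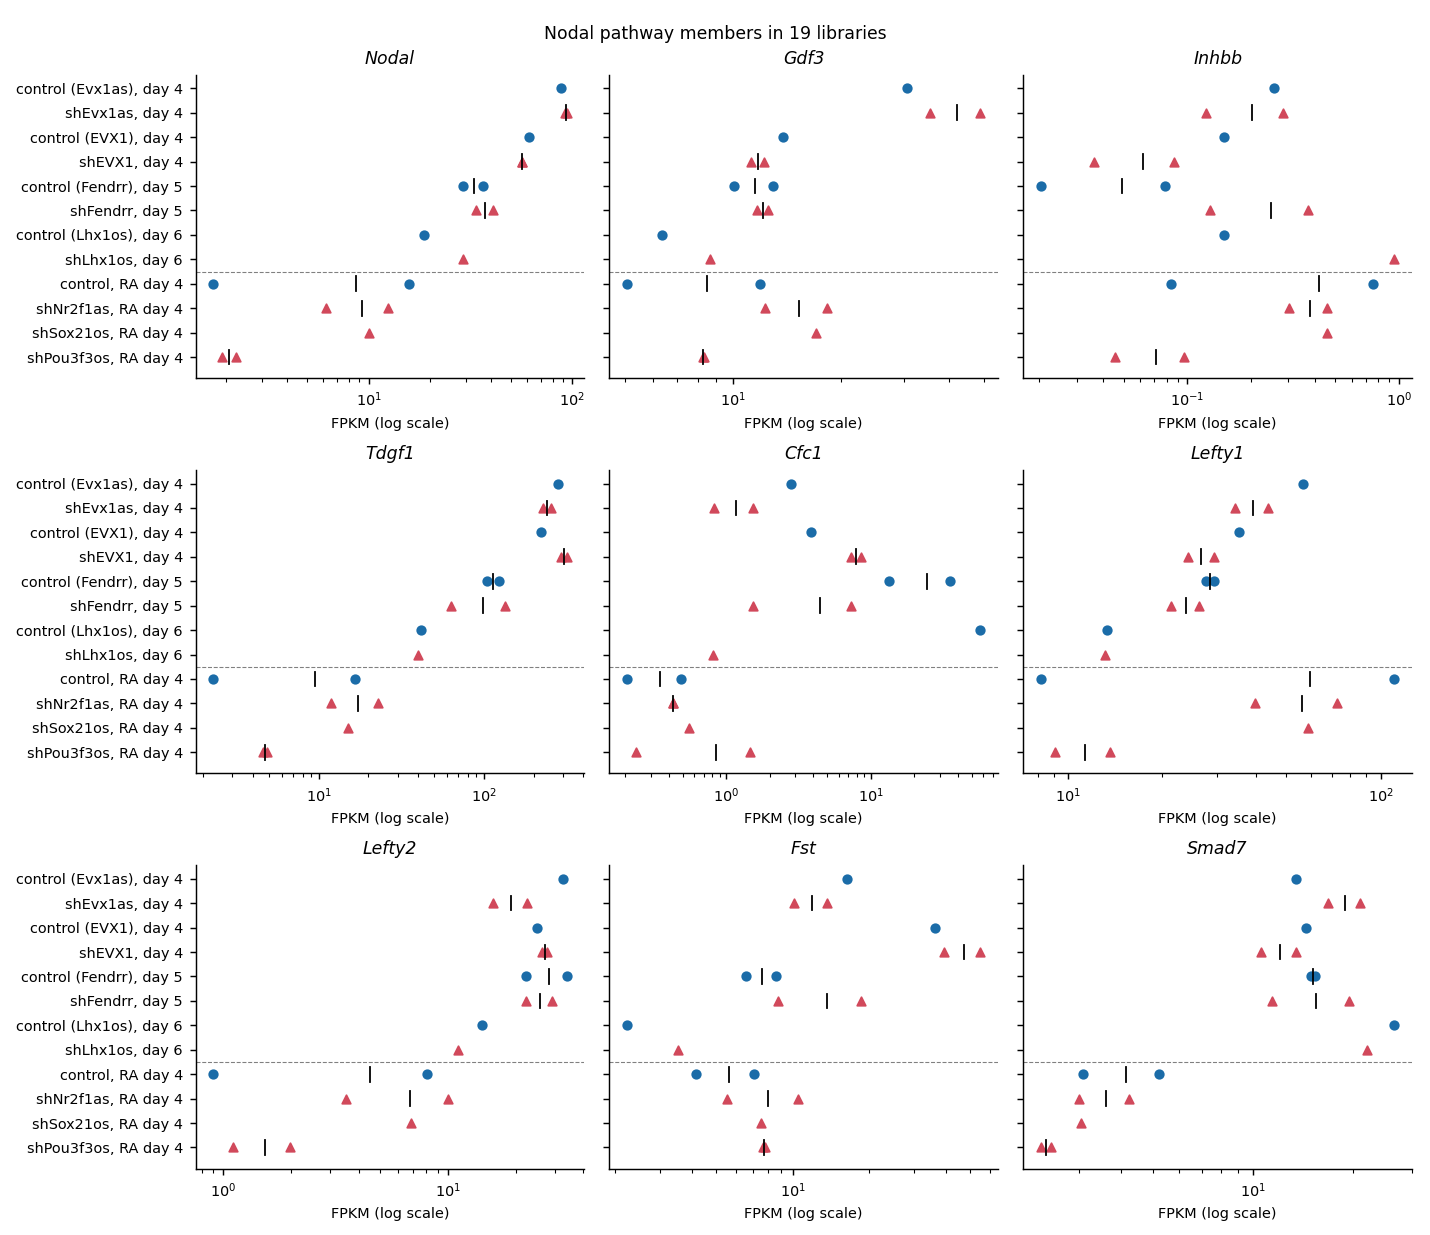
Level of each of the 9 genes in every library (FPKM, log axis), with libraries grouped by experiment. Blue circles are control libraries, red triangles are knockdown libraries and black ticks are means of groups of 2. Nodal and Tdgf1 are lower on day 6, which is the Lhx1os experiment alone, than on day 4 of LIF withdrawal. Cfc1 is highest in the Lhx1os control at 57.5 FPKM.

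Gdf3, a ligand related to Nodal that acts through the same co-receptors, varied least, with a highest level 9.62 times its lowest. It measured 30.6 FPKM in the Evx1as control and 35.4 and 48.9 in the knockdowns, against 13.8, 12.2 and 11.2 in the EVX1 control and knockdowns. The Fendrr controls stood at 12.9 and 10.1 and the knockdowns at 11.7 and 12.6, and the Lhx1os pair at 6.37 and 8.65. With retinoic acid it stood at 5.08 and 11.9 in the controls, 12.3 and 18.3 with Nr2f1as knockdown, 17.0 with Sox21os knockdown and 8.25 and 8.32 with Pou3f3os knockdown. Its culture medians were nearly equal, with a ratio of 1.04, so that Gdf3 over Nodal had a median of 0.343 after LIF withdrawal and 1.99 with retinoic acid.

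Inhbb, the activin beta B subunit, lay between 0.0204 FPKM in Fendrr control 1 and 0.950 in the Lhx1os knockdown. It failed the filter of 1 FPKM in 2 libraries and was tested in no comparison, and with no filter its limma adjusted p was at least 0.453 in each of them.

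Tdgf1, the co-receptor of the epiblast, had the highest mean of the 9 genes. It measured 282 FPKM in the Evx1as control, 229 and 255 in the Evx1as knockdowns, 221 in the EVX1 control and 293 and 317 in the EVX1 knockdowns. The Fendrr controls stood at 123 and 105, the Fendrr knockdowns at 133 and 63.6, the Lhx1os control at 41.8 and the Lhx1os knockdown at 39.8. Retinoic acid libraries were all lower, at 2.30 and 16.6 in the controls, 11.8 and 22.8 with Nr2f1as knockdown, 15.0 with Sox21os knockdown and 4.84 and 4.59 with Pou3f3os knockdown. After LIF withdrawal the day 4 levels did not overlap those of day 5, and those of day 5 did not overlap those of day 6. Since days 5 and 6 are the Fendrr and the Lhx1os experiment alone, this order is of experiments as much as of days. The culture medians differed 15.0 times.

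Cfc1, the co-receptor known from the node and the left-right axis, moved against that order of days in the LIF-withdrawal controls only. It was low on day 4, at 2.82 FPKM in the Evx1as control, 1.52 and 0.828 in the Evx1as knockdowns, 3.84 in the EVX1 control and 8.63 and 7.33 in the EVX1 knockdowns. It was high in the later controls, at 35.3 and 13.5 on day 5 and 57.5 on day 6, and lower in the knockdowns of those days, at 7.37 and 1.52 with the Fendrr hairpin and 0.808 with the Lhx1os hairpin. With retinoic acid it stayed under 1 FPKM in 6 of 7 libraries, at 0.206 and 0.491 in the controls, 0.428 and 0.431 with Nr2f1as knockdown, 0.554 with Sox21os knockdown and 0.238 and 1.47 with Pou3f3os knockdown. Its highest level was 279 times its lowest, the widest range of the 9 genes.

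Lefty1 and Lefty2 bind Nodal and its co-receptors and block signalling. Lefty1 measured 56.3 FPKM in the Evx1as control, 43.8 and 34.1 in its knockdowns, 35.3 in the EVX1 control, 29.3 and 24.2 in its knockdowns, 27.6 and 29.4 in the Fendrr controls, 21.4 and 26.3 in their knockdowns, and 13.4 and 13.1 in the Lhx1os control and knockdown. With retinoic acid Lefty1 ranged from 8.19 in control 1 to 111 in control 2, with 39.5 and 72.7 for Nr2f1as, 58.4 for Sox21os and 9.09 and 13.6 for Pou3f3os. Lefty2 measured 32.6 in the Evx1as control, 22.5 and 15.8 in its knockdowns, 25.04 in the EVX1 control, 27.7 and 26.3 in its knockdowns, 22.4 and 33.7 in the Fendrr controls, 22.3 and 29.0 in their knockdowns, and 14.2 and 11.04 in the Lhx1os pair. With retinoic acid Lefty2 stood at 0.902 and 8.10 in the controls, 3.53 and 9.99 for Nr2f1as, 6.82 for Sox21os and 1.10 and 1.97 for Pou3f3os.

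The balance of the 2 antagonists differed between the cultures. On the per-length FPKM scale, Lefty1 over Lefty2 ran from 0.871 to 2.16 (median 1.12) in the 12 LIF-withdrawal libraries and from 6.90 to 13.7 (median 8.56) in the 7 retinoic acid libraries, with no overlap. Lefty1 over Nodal separated the cultures as well, with 0.372 to 1.01 (median 0.606) and 4.08 to 7.10 (median 5.84). Lefty2 over Nodal did not, with 0.172 to 1.16 (median 0.476) and 0.496 to 1.03 (median 0.571). Within the retinoic acid culture Lefty1 was still lowest in the libraries lowest for Nodal and Lefty2, which were control 1 and both Pou3f3os knockdowns. Tdgf1 over Nodal overlapped between the cultures (1.38 to 5.58 and 1.05 to 2.39). The ratios were set side by side after their values were seen and are descriptions with no test.

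**Figure D2:**
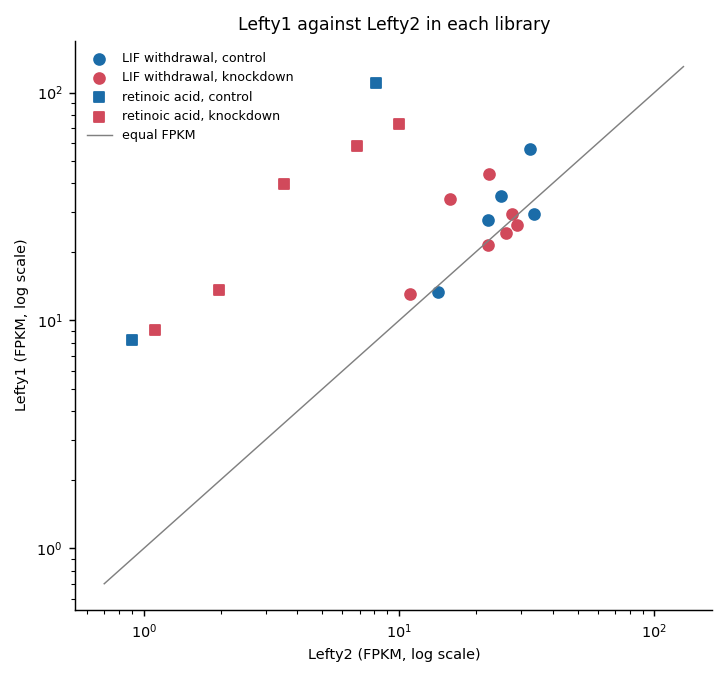
Lefty1 against Lefty2 in the 19 libraries (FPKM, log axes); circles are LIF-withdrawal and squares retinoic acid libraries, blue is control, red is knockdown and the line marks equal levels. Retinoic acid libraries lie apart from LIF-withdrawal libraries, with 6.90 to 13.7 times as much Lefty1 as Lefty2 against 0.871 to 2.16.

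Fst, follistatin, binds activins and blocks them outside the cell. Its highest levels were in the EVX1 experiment, at 36.3 FPKM in the control and 39.3 and 54.8 in the knockdowns. The Evx1as control stood at 16.3 and its knockdowns at 13.6 and 10.1. The Fendrr controls stood at 6.53 and 8.58, the Fendrr knockdowns at 18.6 and 8.72 and the Lhx1os pair at 2.23 and 3.55. With retinoic acid it stood at 4.18 and 7.02 in the controls, 5.49 and 10.5 for Nr2f1as, 7.52 for Sox21os and 7.80 and 7.62 for Pou3f3os.

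Smad7 blocks the activated receptors inside the cell and is itself a target of the pathway. It was highest on day 6, at 26.6 FPKM in the Lhx1os control and 22.1 in the knockdown. It measured 13.45 in the Evx1as control, 16.8 and 21.0 in its knockdowns, 14.4 in the EVX1 control, 10.6 and 13.5 in its knockdowns, 14.9 and 15.4 in the Fendrr controls and 11.4 and 19.5 in their knockdowns; the groups of days 4 and 5 largely overlapped. All 7 retinoic acid libraries were lower, at 3.08 and 5.22 in the controls, 3.001 and 4.22 for Nr2f1as, 3.03 for Sox21os and 2.30 and 2.46 for Pou3f3os.

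Genes with the most similar pattern to each member were ranked by Pearson's r of log2(FPKM + 1) over the 19 libraries, which share culture and experiment, so that r is a description. Nodal was closest to L1td1 (0.98), Pou5f1 (0.97) and Gatsl3 (0.96), and Tdgf1 to Lpcat4 (0.97), L1td1 (0.97) and Fgf5 (0.97). Pou5f1, the core pluripotency factor Oct4, measured 689 FPKM in the Evx1as control, 167 in the Lhx1os control and, with retinoic acid, 43.5 in control 1 and 282 in control 2. Its r with Nodal was 0.95 within the 12 LIF-withdrawal libraries and 0.99 within the 7 retinoic acid libraries. Bspry and Esrp1 were among the genes closest to Lefty2 (0.96 each), and B3gnt7 (0.82) and Spire2 (0.81) among those closest to Lefty1. For Gdf3 these were Jarid2 (0.94), Pou3f1 (0.93) and Tmem8 (0.91), for Cfc1 Usp18 (0.95), Cpt2 (0.94) and Amer3 (0.94), and for Smad7 Dusp9 (0.98), Kifc3 (0.98) and Hmox1 (0.97). For Fst they were Arhgef26 (0.92), Mesp2 (0.90) and Apln (0.90), with a median r of 0.04 within the retinoic acid libraries, and for Inhbb Fgf18 (0.87), Fblim1 (0.78) and Pik3r1 (0.77).

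With Evx1as knockdown none of the 8 tested genes passed the test, and Nodal stood at 88.0 FPKM in the control and 93.6 and 91.8 in the knockdowns. Tests are limma's moderated test on log2(FPKM + 1) over 14942 entries with Benjamini-Hochberg adjustment, and changes below are on that log2 scale, which understates changes of low genes. The adjusted test called 0 of the 8 genes, where it called 0.00669% of all entries. At an unadjusted p under 0.05 it called 0 of 8, against 4.38% of entries. The median change was -0.33 over the 8 genes and 0.05 over all entries, with 3 genes higher and 5 lower. Nodal changed by 0.07 ± 0.74 (SE), with a 95% interval of -1.56 to 1.71. These intervals carry the spread of the retinoic acid libraries: the residual SD of Nodal was 0.145 among the LIF-withdrawal libraries and 1.13 among the retinoic acid ones. Fitted to the 12 LIF-withdrawal libraries alone, an alternative added after the data were seen, the interval for Nodal was -0.33 to 0.48. In that fit Lefty1 (-0.53, interval -1.02 to -0.04) and Lefty2 (-0.76, interval -1.46 to -0.06) each had a limma adjusted p of 0.972. Both antagonists were lower in the 2 Evx1as knockdown libraries than in the single control. All 10 primitive streak genes had a lower fitted mean in these knockdowns, with 0 called, and summed to 364 FPKM in the control and 233 and 70.0 in the knockdowns; their part in the Lefty levels was not tested.

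Knockdown of EVX1 gave no call either. It called 0 of 8 genes by the adjusted test (0.00669% of entries) and 0 of 8 unadjusted (3.32% of entries), with 4 genes higher, 4 lower and medians of -0.00 over the 8 genes and 0.05 over all entries. Cfc1 was 3.84 FPKM in the control and 8.63 and 7.33 in the knockdowns, a change of 0.89 ± 0.66 with an interval of -0.58 to 2.35, and in the 12 libraries alone Nodal had an interval of -0.51 to 0.30. Cfc1 was lower with Evx1as knockdown (-0.83 ± 0.66), and the difference between the 2 knockdown effects was -1.72 with an interval of -3.79 to 0.35. The test of that difference called 0 of 8 genes at either threshold, against 0% of entries adjusted and 2.86% unadjusted. The 2 experiments are in different lines, so line and target cannot be told apart. Beside Cfc1, 6 definitive endoderm markers, with none at 0, summed to 32.1 FPKM in the Evx1as control and 16.2 and 13.6 in its knockdowns. They summed to 19.4 in the EVX1 control and 49.3 and 36.1 in its knockdowns. Cxcr4 made up 14.0 of the EVX1 control sum and 24.3 and 20.6 of the knockdown sums. With Evx1as knockdown 5 of the 6 markers had a lower and 1 a higher fitted mean, and with EVX1 knockdown all 6 had a higher one. The part of these markers in the Cfc1 levels was not tested.

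**Figure D3:**
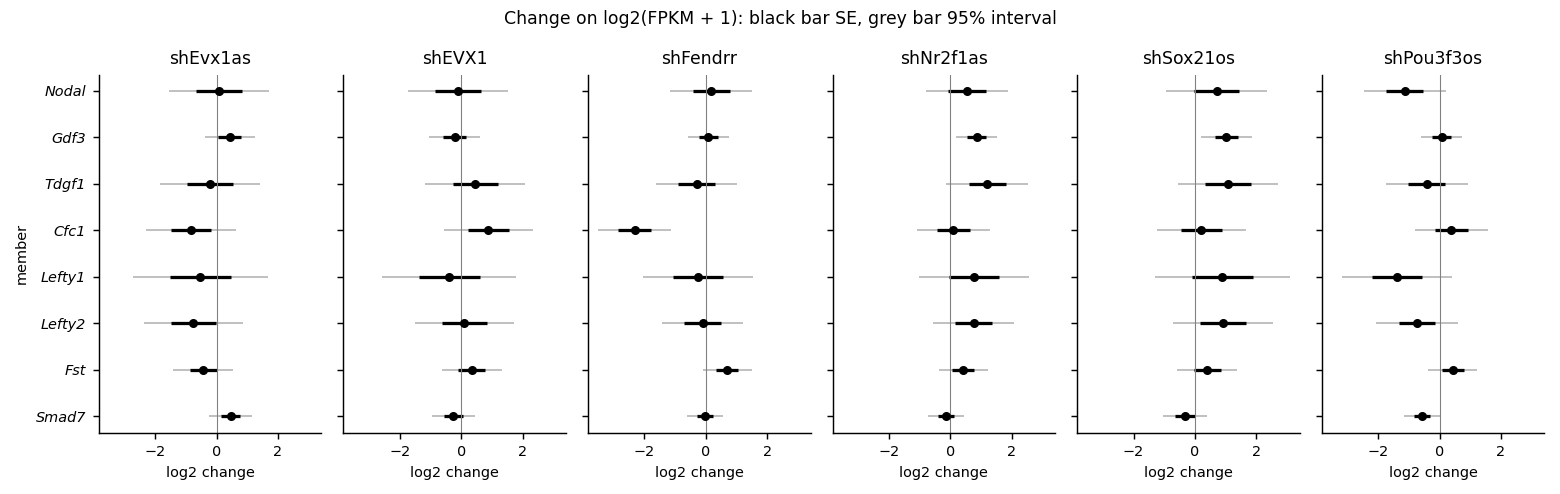
Fitted change of the 8 tested genes in each knockdown (log2(FPKM + 1), knockdown minus its own control); points are estimates, black bars 1 SE to each side and grey bars 95% intervals. Intervals cover 0 except for Cfc1 in the Fendrr knockdown (-2.32, from -3.51 to -1.12) and Gdf3 in the Nr2f1as (0.86) and Sox21os (1.02) knockdowns.

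Knockdown of Fendrr went with lower Cfc1. The controls measured 35.3 and 13.5 FPKM and the knockdowns 7.37 and 1.52, so the groups did not overlap. The change was -2.32 ± 0.54, with an interval of -3.51 to -1.12 and a limma adjusted p of 0.283. Fitted to the LIF-withdrawal libraries alone, the SE was 0.61, the interval -3.77 to -0.87 and the limma adjusted p 0.654. The residual SD of Cfc1 was 0.792 among the LIF-withdrawal libraries and 0.425 among the retinoic acid ones. In the fit to all libraries 0 of 8 genes passed the adjusted test (0.147% of entries). Cfc1 alone passed unadjusted, 1 of 8 against 7.03% of entries. The median over the 8 genes was -0.06, with all entries at 0. Without Fendrr knockdown replicate 1 the Cfc1 change was -3.18, and without other libraries it reached -1.45. Fst measured 6.53 and 8.58 in the controls and 18.6 and 8.72 in the knockdowns, a change of 0.70 ± 0.36 with an interval of -0.09 to 1.497. Nodal (0.18), Gdf3 (0.08), Lefty1 (-0.26), Lefty2 (-0.11), Tdgf1 (-0.30) and Smad7 (-0.02) had intervals that covered 0. The definitive endoderm sum was 35.96 and 29.8 in the controls and 28.0 and 14.5 in the knockdowns. Most of that sum was Cxcr4 (30.2 and 22.4, then 21.7 and 8.54), and 3 of the 6 markers had a higher and 3 a lower fitted mean, with Hhex at 1.43 and 2.16 and then 2.88 and 2.94. The sum of 8 extraembryonic endoderm markers was 34.7 and 28.7 and then 24.3 and 10.4, with Afp and Ttr listed at 0 in all 4 libraries. Only 2 of these 8 reached 1 FPKM, Gata4 (25.5 and 19.6, then 17.1 and 7.73) and Gata6 (8.15 and 7.34, then 5.29 and 2.05). The sum is therefore a reading of these 2 genes more than of a cell type. The part of these markers in the Cfc1 level was not tested.

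In the Lhx1os experiment, with 1 library an arm and so no test, Cfc1 stood at 57.5 FPKM in the control and 0.808 in the knockdown, 71.1 times lower. Past the rule of 5 FPKM in 1 of the libraries and a 2-fold change lay 11.3% of the 9015 entries that reached 5 FPKM, and 1 of the 7 members that reached it. The log2 difference of Cfc1 was -5.02, and the other members lay between -0.33 for Lefty2 and 0.76 for Inhbb, which is at 0.149 and 0.950 FPKM. Nodal (0.60), Gdf3 (0.39) and Fst (0.49) were higher in the knockdown library, and Lefty1 (-0.03), Tdgf1 (-0.07) and Smad7 (-0.26) were near or below the control. The largest ratio between 2 replicate libraries of a group was 6.17 for Cfc1, in the Pou3f3os knockdowns. The definitive endoderm sum was 30.9 in the control and 6.71 in the knockdown, with no marker at 0. The extraembryonic endoderm sum was 56.7 and 7.06, with Afp at 0 in both. The neural progenitor sum was 8.02 and 57.9, and nearly all of that rise was Nes (6.02 and 55.0). Sox1 (0.242 and 0.238), Pax6 (0.197 and 0.379) and Sox3 (1.46 and 1.99) stayed low, and Hes5 was at 0 in both. What part a change in cell types had in the Cfc1 level was not tested.

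Of 44 other pathway genes, 32 reached 5 FPKM in this pair, and 2 were past 2-fold higher and 4 past 2-fold lower in the knockdown. Higher were the ligand Tgfb2 (14.9 and 41.3 FPKM) and Ltbp1 (0.978 and 6.74), which tethers latent TGF-beta. Lower were the endoderm transcription factors Foxa2 (7.76 and 0.736) and Sox17 (7.75 and 1.36), the growth factor Fgf8 (43.3 and 12.3) and Lhx1 (6.06 and 1.32), the coding neighbour of the target. They were named after their values were seen.

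**Figure D4:**
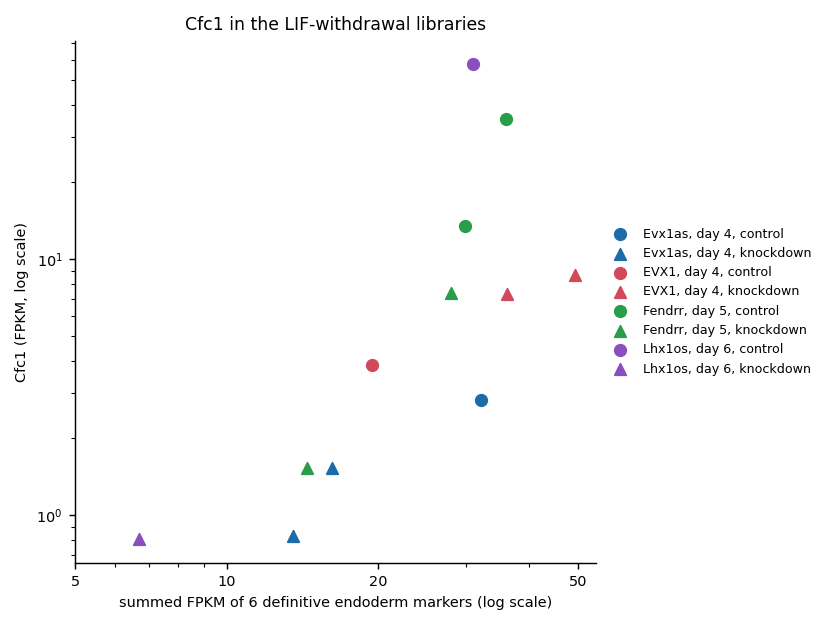
Cfc1 level (FPKM) against the summed level of 6 definitive endoderm markers (FPKM) in the 12 LIF-withdrawal libraries, both on log axes, with circles for controls, triangles for knockdowns and a colour for each experiment. The Lhx1os control is at 57.5 and 30.9, and the Lhx1os knockdown at 0.808 and 6.71. Cxcr4 makes up 12.3 of the marker sum in that control and 1.79 in that knockdown.

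In the retinoic acid experiment the 2 control libraries stood far apart for Nodal, both Lefty genes and Tdgf1. Control 2 over control 1 was 13.5 for Lefty1, 9.08 for Nodal, 8.98 for Lefty2, 7.21 for Tdgf1, 2.34 for Gdf3, 1.69 for Smad7 and 1.68 for Fst. Of the entries kept, 0.0402% had as large a control gap as Lefty1, 0.161% as Nodal, 0.241% as Tdgf1, 0.355% as Lefty2 and 3.25% as Gdf3. Pou5f1 (6.47 times) and Nanog (6.84 times) differed in the same direction, and the 12 pluripotency markers summed to 338 FPKM in control 1 and 1182 in control 2. The sums were 602 and 1020 with Nr2f1as knockdown, 871 with Sox21os knockdown and 380 and 405 with Pou3f3os knockdown. Sox2, which differed little between these libraries, made up 169 and 196 FPKM of the control sums. It made up 164 and 185 with Nr2f1as knockdown, 167 with Sox21os knockdown and 181 and 188 with Pou3f3os knockdown. The part of undifferentiated cells in the member levels was not tested.

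Nodal, Lefty1, Lefty2 and Tdgf1 in the Nr2f1as, Sox21os and Pou3f3os knockdowns were compared with these same 2 controls. With Nr2f1as knockdown 0 of 8 genes passed the adjusted test (0.676% of entries), and Gdf3 alone passed unadjusted (18.1% of entries) at 0.86 ± 0.30, limma adjusted p = 0.170. With Sox21os knockdown 0 of 8 passed (0.0669% of entries), and again Gdf3 alone unadjusted (11.4% of entries) at 1.02 ± 0.37, adjusted p = 0.331. With Pou3f3os knockdown 0 of 8 passed the adjusted test (2.32% of entries) and 0 of 8 the unadjusted (20.8% of entries). The medians were 0.65, 0.80 and -0.49 over the 8 genes, against 0.04, 0.03 and 0.04 over all entries. Nodal changed by 0.54 (interval -0.80 to 1.88) with Nr2f1as knockdown and by -1.14 (-2.48 to 0.20) with Pou3f3os knockdown.

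Which control was kept decided these directions. Without control 1, the Pou3f3os changes of Nodal, Lefty1, Lefty2 and Tdgf1 were -2.45, -3.20, -1.86 and -1.62. The Nr2f1as changes of Nodal, Lefty1, Lefty2 and Tdgf1 were then -0.77, -1.03, -0.37 and -0.0060. Without control 2, the Nr2f1as changes of Nodal, Lefty1 and Tdgf1 were 1.85, 2.57 and 2.41. The Sox21os change of Lefty1 was then 2.69, and the Pou3f3os changes of Nodal, Lefty1, Lefty2 and Tdgf1 turned to 0.17, 0.40, 0.40 and 0.79.

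**Figure D5:**
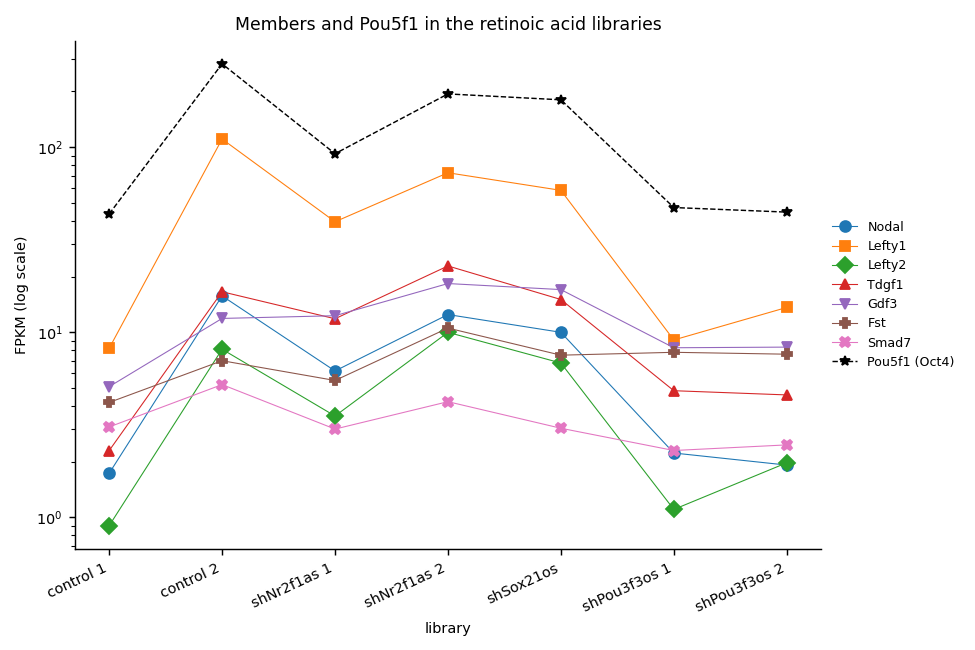
Levels of Nodal, Lefty1, Lefty2, Tdgf1, Gdf3, Fst and Smad7 with the pluripotency factor Pou5f1 in the 7 retinoic acid libraries (FPKM, log axis); lines only join the points of 1 gene. Control 1 and both Pou3f3os knockdowns are low for Nodal, both Lefty genes, Tdgf1 and Pou5f1, and control 2 is highest for Nodal (15.7 FPKM) and Lefty1 (111 FPKM).

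The Nr2f1as and Pou3f3os knockdowns could be compared directly, with differences that do not use the control levels. Their SE and p-values still do, because the fitted spread includes the gap between the control libraries. Both Nr2f1as libraries lay above both Pou3f3os libraries for Nodal, Lefty1, Lefty2, Tdgf1 and Gdf3. Differences of Nr2f1as minus Pou3f3os were 1.68 ± 0.61 for Nodal, 2.17 ± 0.81 for Lefty1, 1.496 ± 0.60 for Lefty2, 1.61 ± 0.60 for Tdgf1 and 0.79 ± 0.30 for Gdf3. By limma's test with no adjustment these 5 of 8 genes passed 0.05 (5.49% of entries did), at 0.0184, 0.0222, 0.0304, 0.0220 and 0.0251. Each had an adjusted p of 0.884, so 0 of 8 passed the adjusted test (0.00669% of entries). The median was 1.14 over the 8 genes and -0.02 over all entries, and the pluripotency sums of these 4 libraries, given above, are ordered the same way.

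Among the 41 other pathway genes tested, 0 were called in the Evx1as (0.00669% of entries), EVX1 (0.00669%), Fendrr (0.147%) and Sox21os (0.0669%) comparisons, 1 with Nr2f1as knockdown (0.676%) and 2 with Pou3f3os knockdown (2.32%). Tgif1, a repressor that binds Smads, was called higher with Nr2f1as and Pou3f3os knockdown. It measured 46.2 and 43.1 FPKM in the controls of this culture, 78.0 and 79.8 with Nr2f1as knockdown, 84.0 with Sox21os knockdown and 63.3 and 77.0 with Pou3f3os knockdown. Here the 2 controls were alike and all 5 knockdown libraries were higher. The comparisons share these 2 controls, so they are not independent. A low level in the controls cannot be told apart from a rise in the knockdowns. The changes were 0.81 ± 0.13 (limma adjusted p = 0.0352) for Nr2f1as, 0.90 (adjusted p = 0.0836) for Sox21os and 0.63 ± 0.13 (adjusted p = 0.0397) for Pou3f3os. Trim33, a ubiquitin ligase and Smad partner, was called higher with Pou3f3os knockdown, from 2.96 and 2.03 to 4.50 and 5.14 FPKM (0.75 ± 0.17, limma adjusted p = 0.0463). With no filter on low values the 3 calls were lost, at a limma adjusted p of 0.0513 and 0.0626 for Tgif1 and 0.0733 for Trim33. Fitted to the retinoic acid experiment alone they were 0.181, 0.163 and 0.180. Without 1 control or knockdown library, the Tgif1 change was 0.76 to 0.86 for Nr2f1as and 0.49 to 0.77 for Pou3f3os. The Trim33 change was then 0.55 to 0.94, and most of the fits without 1 library lost the call.

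At an unadjusted p under 0.05, 7 of the 41 passed with Evx1as knockdown (4.38% of all entries did), all lower: Tgfb1, Cer1, Mixl1, Gsc, Foxa2, Sox17 and Lhx1. With EVX1 knockdown 4 passed (3.32% of entries), with Cer1, Foxa2 and Sox17 higher and Bmp4 lower. Mixl1, Gsc and Lhx1 are also among the primitive streak genes summed above, and Cer1, Foxa2 and Sox17 among the definitive endoderm markers. They are therefore the same values and no separate result, and each of these comparisons rests on a single control library. Cer1, a secreted antagonist of Nodal and BMP, measured 4.55 FPKM in the Evx1as control and 1.47 and 0.327 in its knockdowns, and 0.339 in the EVX1 control and 7.16 and 4.03 in its knockdowns. The difference between the 2 knockdown effects on Cer1, named after its values were seen, was -3.87 ± 0.50 with a limma adjusted p of 0.0729. With Fendrr knockdown 4 passed unadjusted (7.03% of entries), all lower: Bmp4, Acvr1b, Acvr2b and Sox17. Of the genes with the highest mean in their list, the ligand Tgfb1 ranged from 0.360 to 51.6 FPKM, the type II receptor Acvr2b from 5.61 to 33.8 and the follistatin-like Fstl1 from 22.2 to 60.4. The proteases Furin (12.1 to 50.8) and Pcsk6 (2.20 to 13.0) cut ligand precursors. Inside the cell, Foxh1 ranged from 30.4 to 131, Smad4 from 35.1 to 55.6 and Drap1, which represses FOXH1, from 107 to 236. The targets T (0.637 to 326) and Fgf8 (2.63 to 161) had the highest means of theirs.

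In the retinoic acid culture 7 of the 41 passed unadjusted with Nr2f1as knockdown (18.1% of entries), 6 of them higher, 3 with Sox21os knockdown (11.4%), all higher, and 8 with Pou3f3os knockdown (20.8%), 6 of them higher. These counts are near or under the share of all entries. The type I receptor Acvr1b was among them in all 3 comparisons, at 5.73 and 8.65 FPKM in the shared controls, 10.7 and 10.5 with Nr2f1as knockdown, 11.5 with Sox21os knockdown and 9.79 and 9.31 with Pou3f3os knockdown. The corepressor Ski was lower with Nr2f1as and Pou3f3os knockdown, at 44.4 and 40.1 and at 45.2 and 42.1, against 55.4 and 60.1 in the controls. The Nr2f1as minus Pou3f3os difference had 4 such genes (5.49% of entries), Tgfb1, Foxh1, Skil and Fgf8, all higher with Nr2f1as knockdown. Neither Acvr1b nor Ski passed the adjusted limma test, and both were named after their values were seen.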

How the data were processed

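Per the labels' protocols, poly(A) RNA was selected with Dynabeads and sequenced as TruSeq stranded mRNA libraries. The authors deposited FPKM values per entry, 1 column for each of 19 libraries. TopHat2 2.0.11, CASAVA and the builds mm9 and mm10 are named per the submitters' processing notes. Quantifier, annotation and strand setting: not given in the sources used here. Positions follow mm9: 116 entries are on random chromosomes, and 4.60% of 18864 matched coding symbols lay within 1000 bp of GRCm38. Starts were changed to 1-based counting. Read depth is unknown: steps between low loci gave a relative depth of 0.983 to 1.34, with only 30.1 to 42.9% of loci within 0.02 (log2) of a step, so no counting intervals are given.

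From these values, log2(FPKM + 1) was computed for the 14942 entries that reached 1 FPKM in 2 or more libraries, which include 8 of the 9 genes. All 19 libraries entered a linear model of 12 group means in limma 3.58.1 (R 4.3.3, mean trend, two-sided, Benjamini-Hochberg, threshold 0.05). Groups of 2 libraries (7) give the 7 residual degrees of freedom, and groups of 1 (5) are assumed to vary alike. The Lhx1os pair was described with no test. The script was tested on simulated data.

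Named genes were all 9 members, called genes of the pathway lists or else the 2 with the highest mean of each list, and the 3 genes most like each member, without predicted, RIKEN, microRNA, small nucleolar, pseudogene or unnamed loci. Some of these genes are not reported here. Members and lists were chosen with earlier results of these data known. Alternatives were another pseudocount, filter, scaling, variance prior, sample set and block, and leaving out each library. Promoters are from RefSeq (GRCm38.p6), found for Nodal, Cfc1, Tdgf1 and Inhbb among the members; transcript windows are from GENCODE M21.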

Additional observations from a re-analysis of the deposited data

How the results depend on the processing

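No member was called in the Evx1as, EVX1 and direct Nr2f1as against Pou3f3os comparisons under any alternative run. The Tgif1 and Trim33 calls were lost 7 times in all under alternatives other than leaving out 1 library, and in most fits without 1 library. Other results kept their direction and side of the threshold except as follows. The number of all entries called (1 for Evx1as, 1 for EVX1, 22 for Fendrr, 101 for Nr2f1as, 10 for Sox21os and 346 for Pou3f3os) moved more. With a pseudocount of 0.1 it was 0, 0 and 1 for Evx1as, EVX1 and Fendrr. With no filter it was 213, 136, 87, 47, 216 and 161 in the order above, and with at least 5 FPKM in 2 libraries 0, 0 and 6 for the first 3. Fitted to each experiment alone it was 0 for Evx1as, EVX1, Fendrr, Nr2f1as and Pou3f3os. With no mean trend it was 2 for Evx1as and 54 for Nr2f1as. In the 12 LIF-withdrawal libraries alone, added after the data were seen, it was 3, 0 and 0. Leaving out 1 library gave 2 to 4 for Evx1as, 0 to 0 for EVX1, 2 to 231 for Fendrr, 43 to 391 for Nr2f1as, 29 to 186 for Sox21os and 0 to 1240 for Pou3f3os, and the members called were 0 to 1, 0 to 3, 0 to 1 and 0 to 4 in the last 4. The causes were not tested, beyond fewer or other libraries or entries entering the fit.

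Replicate numbers are not said to pair the libraries. The differences between replicates 2 and 1 correlated over 8263 genes at 0.40 between the Fendrr controls and knockdowns, 0.41 between the retinoic acid controls and Nr2f1as, -0.06 between those controls and Pou3f3os, and -0.11 between Nr2f1as and Pou3f3os. With a replicate block, 1 member was called for Fendrr (Cfc1, limma adjusted p = 0.0146), where 30 of all entries were called. For Nr2f1as and Pou3f3os 331 and 813 entries were called.

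Scaling to the same total turned Smad7 in the Fendrr comparison to 0.021, and median-ratio scaling turned Fst in the Nr2f1as minus Pou3f3os difference to 0.0090. The share of higher calls for Pou3f3os was 239 of 346, against 348 of 424 and 212 of 398 under these scalings. With a pseudocount of 0.1 the Lhx1os log2 differences were -5.99 for Cfc1 and 2.07 for Inhbb. The median r of the 3 most similar genes, in the 12 LIF-withdrawal and the 7 retinoic acid libraries, was 0.86 and 0.98 for Nodal, 0.57 and 0.94 for Lefty1, 0.93 and 0.43 for Cfc1, 0.89 and 0.88 for Tdgf1, 0.94 and 0.95 for Gdf3, 0.94 and 0.043 for Fst, and 0.82 and 0.90 for Smad7; it was 0.50 for Lefty2 and 0.85 for Inhbb in the LIF-withdrawal libraries.

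Leaving out 1 library turned the sign of some log2 changes, which then ranged as follows. With Fendrr knockdown Lefty2 ranged from -0.39 to 0.18, Tdgf1 from -0.83 to 0.23, Gdf3 from -0.087 to 0.24 and Smad7 from -0.39 to 0.34. With Nr2f1as knockdown Nodal ranged from -0.77 to 1.85, Lefty1 from -1.03 to 2.57, Lefty2 from -0.37 to 1.89, Cfc1 from -0.060 to 0.25, Tdgf1 from -0.0060 to 2.41 and Smad7 from -0.44 to 0.16. With Sox21os knockdown Nodal ranged from -0.60 to 2.01, Lefty1 from -0.91 to 2.69, Lefty2 from -0.22 to 2.04 and Tdgf1 from -0.13 to 2.28. With Pou3f3os knockdown Nodal ranged from -2.45 to 0.17, Lefty1 from -3.20 to 0.40, Lefty2 from -1.86 to 0.40, Cfc1 from -0.12 to 0.88, Tdgf1 from -1.62 to 0.79 and Gdf3 from -0.47 to 0.61. The Evx1as minus EVX1 difference of Lefty1 ranged from -0.31 to 0.040, and the Nr2f1as minus Pou3f3os differences from -0.79 to 0.21 for Cfc1 and -0.42 to 0.41 for Fst.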
